A study of Mus musculus with 4 samples.

Results

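The leukocyte integrin genes were taken as 8 genes of the mouse genome: the 4 α subunits of the CD11 family (Itgax, Itgam, Itgad and Itgal), their common β subunit Itgb2, and the related Itga4, Itgb7 and Itgae. SMAD4 binding near them was read from peaks whose summit, the position of highest signal, lay in the gene body or within 50 kb of a transcription start site (TSS) of a curated RefSeq transcript. These 8 genes are 8 of 20923 protein-coding genes outside chromosome Y, and their windows held 17 of 16369 peaks in replicate 1 and 26 of 19015 in replicate 2. Where peaks of both replicates had 1 bp or more in common they were joined into a shared region, and 13 of the 10964 shared regions lay in the integrin windows. The cells were alveolar macrophages (AMs), which live in the airspaces of the lung, taken from wild-type C57BL/6J mice (9 wk old) by bronchoalveolar lavage and cell sorting. SMAD4 was immunoprecipitated in 2 libraries by HT-ChIPmentation, which adds sequencing adapters by transposition on the chromatin-bound beads, and 2 input libraries served as controls in peak calling. All libraries came from the same untreated condition. The labels do not say whether the replicates came from separate mice, so that the spread between them may be technical.

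Integrins are cell surface receptors made of an α and a β subunit, and they tie leukocytes to other cells, to matrix and to complement-coated particles. Itgax encodes CD11c, the α subunit of complement receptor 4, and its protein is high on AMs, whereas CD11b, encoded by Itgam, is low on them in the healthy lung. Itgal encodes CD11a of LFA-1, which binds the ICAM proteins, Itgad encodes CD11d, and Itgb2 encodes CD18, the β subunit that all CD11 chains need to reach the surface. Itga4 encodes the α4 chain that pairs with β1 or β7 to bind VCAM-1 and MAdCAM-1, Itgb7 encodes β7, and Itgae encodes CD103, which pairs with β7 to bind E-cadherin and is known as a TGFβ-responsive gene in T cells. SMAD4 is the partner that the receptor-activated SMADs share when they carry TGFβ signals to the nucleus. The study asked where SMAD4 binds in AMs, Itgax being among the genes whose surroundings it examined. Peaks show binding and not expression, and no expression values were used here.

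Shared SMAD4 regions lay in the windows of 6 of the 8 genes: 4 each for Itgax and Itgam, 3 for Itgal, and 2 each for Itgad, Itgb2 and Itga4. Itgb7 and Itgae had none. For comparison, 39.1% of all protein-coding genes had at least 1 shared region in a window defined in the same way, with a median of 0 regions, and 5.83% had 4 or more. Windows of Itgam, Itgax and Itgad overlap because the genes are neighbours, so that regions they have in common were counted in each of them but only once in the total of 13. The same 6 genes had the TSS nearest to at least 1 shared region, as 21.5% of all protein-coding genes did. The mean per window was 2.12 shared regions in the 8 genes and 0.829 in all protein-coding genes, whose windows had a median length of 100 kb. No test was made of these counts: there was 1 condition, and the genes were chosen with earlier results of these data known.

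**Figure D1:**
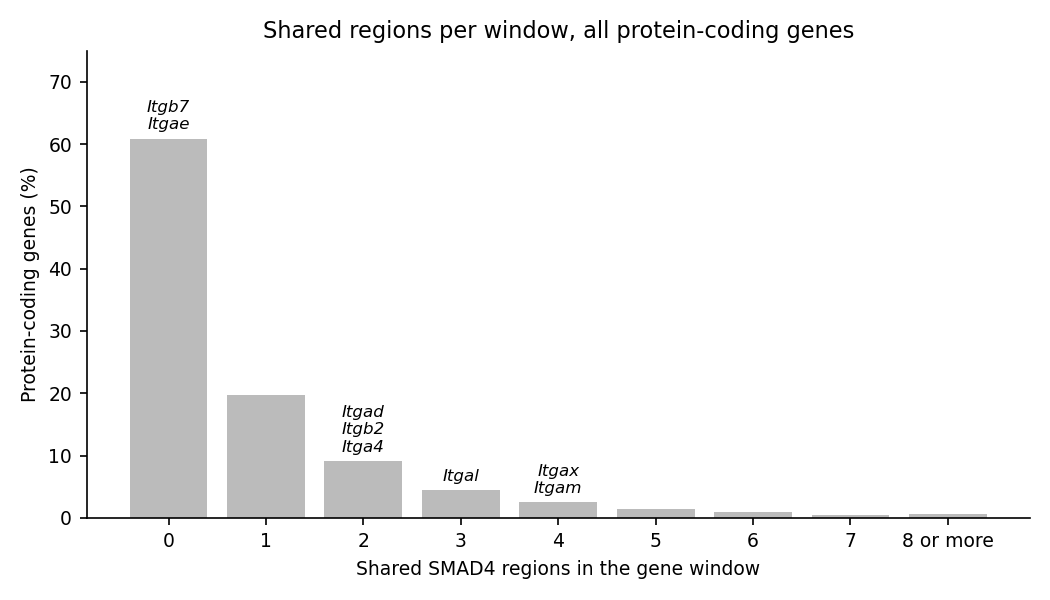
Percent of the 20923 protein-coding genes (vertical axis, in percent) with each number of shared SMAD4 regions in the window (horizontal axis); gene names mark the bar that holds each integrin gene. Itgax and Itgam, with 4 regions each, stand where 5.83% of genes had as many or more, while Itgb7 and Itgae stand in the bar of genes with none.

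The strongest region of the CD11 cluster lay in Itgax (gene body chr7:128129550-128150657, plus strand, mm10). It spanned chr7:128133576-128134156, with its mean summit 4272 bp downstream of the Itgax TSS. Its fold enrichment over input was 16.2 in replicate 1 and 25.3 in replicate 2, with 49 and 55 fragments stacked at the summit. These folds stood at or above 95.2% and 96.1% of the peaks of their lists, and the region ranked 775th of the 10964 shared regions by the lower of its 2 folds. The summits of the 2 replicates were 13 bp apart. In the full-length Itgax transcript of 30 exons the mean summit was in intron 8. In the 2 shorter curated transcripts, which end here, it was in exon 8, the last exon.

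Sequence around this summit held a tight group of matches. Within 100 bp each side of the mean summit, 12 consensus strings of factors known in macrophages were searched on both strands, with N standing for any base. The window held 3 matches to GAGGAAGT, the string of PU.1, the ETS factor that macrophages need to form, all on the minus strand and within 37 bp (128133841 to 128133877). It also held 1 match to GTGGGAA, the string of RBPJ, the DNA-binding effector of Notch signaling, and 1 to TTGCNNAA, the string of the C/EBP factors. Among all shared regions 8.0% had at least 1 PU.1 string, 0.237% at least 2, and 2 regions at least 3, the other lying 11738 bp from the TSS of Cmtm6. PU.1 and RBPJ strings occurred together in 41 of the 10964 shared regions (0.374%). This group of matches was singled out after the counts were seen. The 30 bases printed here hold the RBPJ string and the first 2 PU.1 strings in capitals, as they read on the plus strand, chr7:128133833-128133862. The stretch is short because the window lies partly in the untranslated end of a short Itgax transcript.
Itgax site: TTCCCACcACTTCCTCctgtaACTTCCTCt

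Binding around Itgax was otherwise weaker or came from 1 replicate. The shared region chr7:128110107-128110614 had its mean summit 19112 bp upstream of the Itgax TSS and was nearest to that TSS, but lay in intron 16 of Itgam. It had folds of 6.17 and 7.67 from 18 and 16 fragments, and its window held 1 C/EBP string. A peak of replicate 2 at chr7:128137251-128137369, 7743 bp downstream of the Itgax TSS, had a fold of 5.87 from 12 fragments and no partner. The other regions in the Itgax window were nearest to the TSS of Itgam or of Itgad.

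**Figure D2:**
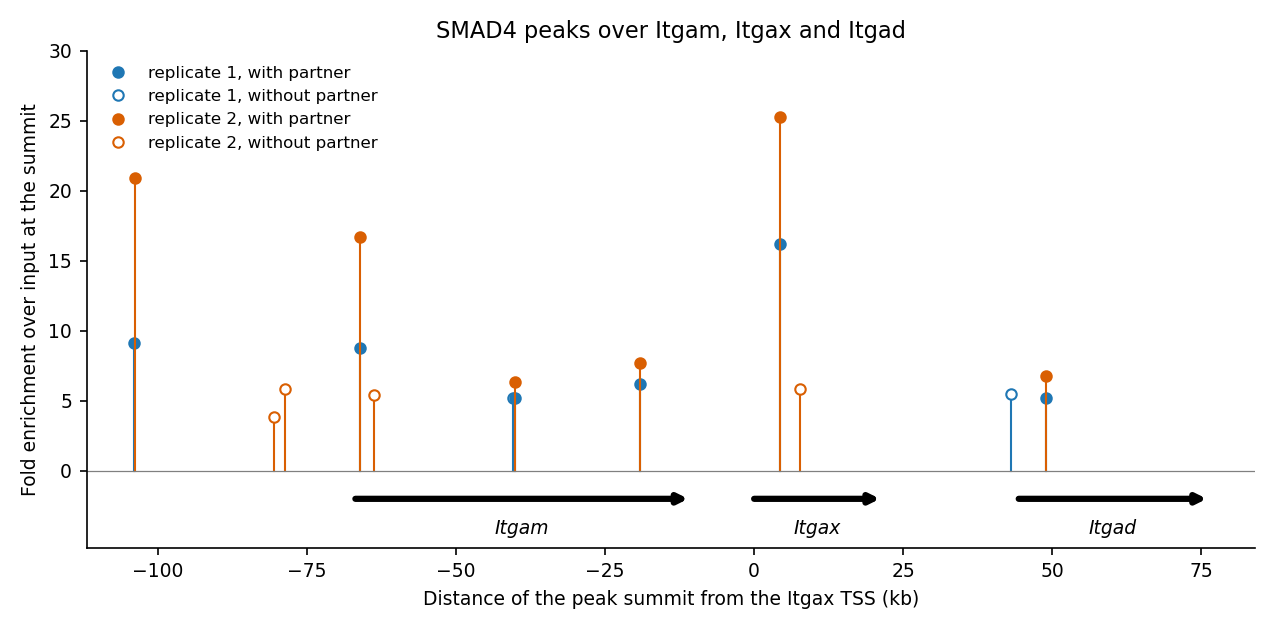
Fold enrichment over input at the summit (vertical axis) of each SMAD4 peak in the windows of Itgam, Itgax and Itgad, by distance from the Itgax TSS in kb (horizontal axis); blue is replicate 1, orange is replicate 2, filled points have a partner in the other replicate, and arrows show the gene bodies in the direction of transcription. The tallest pair (16.2 and 25.3) is inside Itgax, and the next are upstream of Itgam (9.10 and 20.9) and at its first intron (8.77 and 16.7).

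Itgam (chr7:128062640-128118491, plus strand), whose TSS is 66910 bp upstream of that of Itgax, had its strongest own region close to its start. The region chr7:128063249-128063841 had its mean summit in intron 1, 851 bp downstream of the TSS, with folds of 8.77 and 16.7 from 26 and 36 fragments. The summits of the replicates differed by 3 bp. None of the 12 strings occurred within 100 bp of the mean summit. That absence depends on the summit used: around the summits of replicate 1, all 13 regions held at least 1 string, this region included. The window around the mean summit is shown because the region is the strongest nearest to this gene (chr7:128063391-128063591, plus strand).
Itgam region: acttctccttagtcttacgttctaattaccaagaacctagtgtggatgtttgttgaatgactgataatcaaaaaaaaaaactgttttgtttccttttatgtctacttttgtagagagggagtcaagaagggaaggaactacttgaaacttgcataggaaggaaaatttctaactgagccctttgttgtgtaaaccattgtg

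A stronger region lay 37112 bp upstream of Itgam, at chr7:128025296-128025879 between genes, with folds of 9.10 and 20.9 from 27 and 49 fragments. The nearest TSS was that of Trim72, 21150 bp away. Its window held strings of C/EBP, AP-1 (TGAGTCA), the E-box (CACGTG) and the nuclear receptors (AGGTCA). In intron 12 of Itgam the region chr7:128089305-128089575 was weaker, with folds of 5.20 and 6.32 from 15 and 13 fragments, and held 1 C/EBP string. A second peak of replicate 1 (fold 5.20, 15 fragments) ended 123 bp before it and had no partner. Replicate 2 alone had 3 further peaks nearest to Itgam, with folds of 3.86, 5.86 and 5.41 at 13683 and 11756 bp upstream and 3184 bp downstream of the TSS.

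Itgad (chr7:128173946-128205504, plus strand) had 1 shared region nearest to its TSS. It spanned chr7:128178430-128178769 with its mean summit in intron 5, 4574 bp from the TSS, and its folds were 5.20 and 6.77 from 15 and 14 fragments. These are close to the middle of the lists, at the percentiles 46.7 and 52.0. Its window, chr7:128178420-128178620, held 1 RUNX string (TGTGGT), in capitals, for the RUNX factors, which take part in blood cell formation.
Itgad region: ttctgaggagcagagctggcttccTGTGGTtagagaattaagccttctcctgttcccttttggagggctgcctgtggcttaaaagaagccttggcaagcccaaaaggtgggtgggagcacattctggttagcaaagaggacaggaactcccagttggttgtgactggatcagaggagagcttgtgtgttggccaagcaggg
A peak of replicate 1 alone, 1295 bp upstream of the Itgad TSS, had a fold of 5.52 from 16 fragments. From the start of Itgam to the end of Itgad, a stretch of 143 kb, there were 5 shared regions. In both replicates the folds of the Itgax region were above those of the other regions of this stretch.

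Itgal (chr7:127296260-127335137, plus strand) lies apart from this cluster on the same chromosome. The region nearest to it was in its promoter: chr7:127296113-127296433 had its mean summit 30 bp upstream of the TSS, with folds of 5.20 and 6.77 from 15 and 14 fragments, the same fragment numbers as in Itgad. The replicate summits were 14 bp apart. A PU.1 string on the minus strand (127296244 to 127296251) lay just upstream of the TSS and is in capitals in the upstream part of the summit window, chr7:127296130-127296259.
Itgal region: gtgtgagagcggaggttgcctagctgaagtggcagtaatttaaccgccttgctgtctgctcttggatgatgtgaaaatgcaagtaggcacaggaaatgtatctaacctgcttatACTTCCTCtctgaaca
Stronger binding in the Itgal window belonged by distance to Sephs2, a selenophosphate synthetase gene. The region chr7:127273978-127274932, 955 bp wide, had its mean summit 588 bp upstream of the Sephs2 TSS and 21613 bp upstream of that of Itgal, with folds of 12.7 and 20.3 from 38 and 44 fragments. The region chr7:127270271-127270599 had folds of 8.45 and 12.2 and was also nearest to Sephs2. It was the only integrin window region with a match to GTCTGG, a SMAD string. Replicate 2 alone had 3 more peaks nearest to Itgal, with folds from 4.51 to 4.96 and 9 or 10 fragments.

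Itgb2 (chr10:77530370-77565708, plus strand), which encodes the β subunit common to the CD11 integrins, had a region whose percentile of fold did not differ from that of the Itgax region beyond the spread of the replicates. The region chr10:77550811-77551459 had its mean summit in intron 8, 20770 bp downstream of the TSS, with folds of 12 and 26.2 from 36 and 57 fragments. It had the highest fold of any integrin window peak in replicate 2, and in replicate 1 it came after the Itgax region and the Sephs2 promoter region. The summits were 5 bp apart, and the window (chr10:77551040-77551240, plus strand) held 1 C/EBP string, in capitals.
Itgb2 region: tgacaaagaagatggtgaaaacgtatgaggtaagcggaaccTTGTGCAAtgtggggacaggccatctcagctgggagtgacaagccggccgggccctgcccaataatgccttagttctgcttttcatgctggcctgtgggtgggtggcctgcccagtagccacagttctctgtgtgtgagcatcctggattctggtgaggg
A second region, chr10:77536528-77537146 in intron 1, had folds of 5.67 and 9.02 from 18 and 19 fragments. Its replicate summits were 360 bp apart, the widest gap of the 13 regions, so that its mean summit lies between separate maxima. No string was found within 100 bp of this mean summit. Around the summits of replicate 1, all 13 regions held at least 1 of the 12 strings, this region included. Itgb2 also had the most peaks without a partner: 2 in replicate 1 (folds 3.90 and 4.87) and 4 in replicate 2 (folds 3.18, 5.44, 5.87 and 5.87). One of these, in replicate 2, ended 10 bp before the strong intron 8 region.

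Itga4 (chr2:79255426-79333114, plus strand) had 2 weak shared regions at its start. The promoter region chr2:79254627-79254963, with its mean summit 634 bp upstream of the TSS, had folds of 4.87 and 7.22 from 14 and 15 fragments. The region chr2:79257039-79257425 in intron 2 had folds of 5.07 and 4.60 from 16 and 10 fragments, and was the only region of the 13 with the lower fold in replicate 2. Beyond the window, shared regions at 109320 and 123067 bp upstream also had Itga4 as the nearest TSS. Both had higher folds than the promoter region in both replicates: 7.01 and 13.5 for the closer, and 9.10 and 11.3 for the other. Itga4 was the only member with shared regions nearest to it outside the window. The promoter summit window (chr2:79254692-79254892) held 1 PU.1 string. It is shown with the string in capitals, together with the RefSeq promoter of Itga4 (GRCm38.p6) up to the TSS (chr2:79255176-79255425), in which the capitals mark a RUNX string.
Itga4 region: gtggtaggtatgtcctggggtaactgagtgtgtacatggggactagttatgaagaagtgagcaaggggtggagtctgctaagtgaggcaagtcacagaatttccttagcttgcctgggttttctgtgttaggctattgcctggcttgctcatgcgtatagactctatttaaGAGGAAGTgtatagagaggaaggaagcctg
Itga4 promoter: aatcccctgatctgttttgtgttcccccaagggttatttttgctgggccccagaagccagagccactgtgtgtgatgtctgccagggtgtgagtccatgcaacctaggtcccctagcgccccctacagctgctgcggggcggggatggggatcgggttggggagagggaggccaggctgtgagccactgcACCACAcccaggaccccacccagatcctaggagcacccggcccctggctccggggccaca
Of the 8 members, 4 had an entry among the RefSeq promoters (Itgax, Itgam, Itgb7 and Itga4). No summit lay within the 300 bases of any of these 4 entries. They held an AP-1 and a RUNX string in Itgax, a PU.1 and a SMAD string in Itgb7, and the RUNX string in Itga4, and none of the 12 strings in Itgam. Over all RefSeq promoters the shares were 5.20% for AP-1, 16.8% for RUNX, 3.20% for PU.1 and 17.9% for SMAD.

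Itgb7 and Itgae, the partners in the CD103 integrin, had no shared region in their windows. Itgb7 (chr15:102215995-102231935, minus strand) had no peak in replicate 1. In replicate 2 its window held 2 peaks without a partner, each with a fold of 8.12 from 17 fragments, and both were nearest to another gene: 1 lay in the Zfp740 promoter and the other in an intron of Rarg, the gene of retinoic acid receptor γ. The closest shared region was 51134 bp from the Itgb7 TSS, just outside the window, whereas the most distant region inside any window was 48970 bp from its TSS (the Itgad region, in the window of Itgax). Itgae (chr11:73090583-73147449, plus strand) had no peak of either replicate in its body or within 50 kb of its TSS. The closest shared region was 95470 bp from the TSS, nearest to Tax1bp3, with folds of 4.55 and 9.48. The absence of a called peak means that no position passed the q-value limit of 0.05 at this depth, and is not a measurement of no binding.

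**Figure D3:**
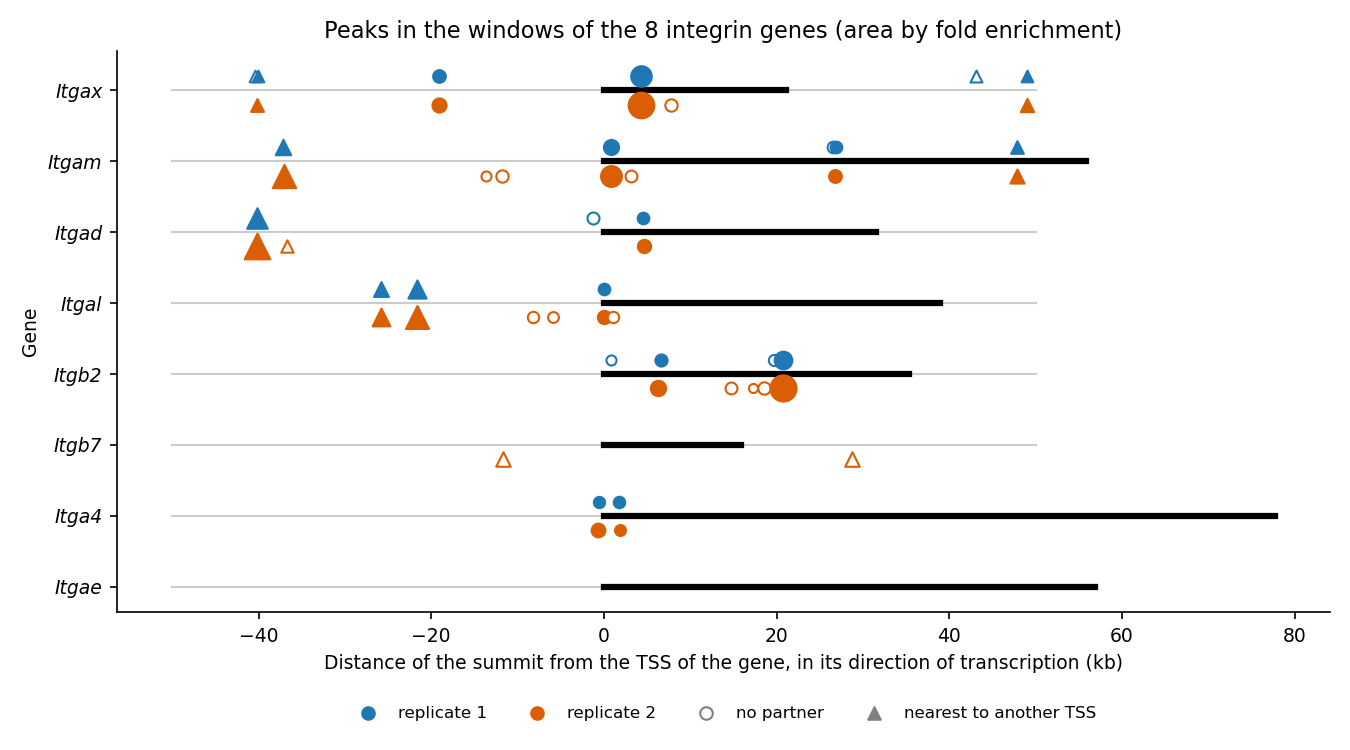
All SMAD4 peaks in the windows of the 8 genes (rows), by distance from the TSS in kb in the direction of transcription (horizontal axis); black bars are gene bodies, grey lines the windows, point area is fold enrichment, open points have no partner, and triangles are nearest to another TSS. Large filled circles are seen inside Itgax, Itgam and Itgb2, the Itgb7 row has 2 open triangles of replicate 2, and the Itgae row is empty.

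The members were ordered by the mean percentile of fold within each list, taking for each gene the strongest shared region nearest to it in its window. The order was Itgax (95.6 ± 0.641, SD, n = 2), Itgb2 (93.1 ± 4.73), Itgam (84.7 ± 6.88), Itgad and Itgal (both 49.4 ± 3.73) and Itga4 (47.8 ± 11.7). Itgax and Itgb2 did not differ beyond their spread. Itgb2 and Itgam were 8.40 percentile points apart, which was more than the larger of their SDs (6.88), and Itgam and Itgad were 35.4 points apart. Itgad, Itgal and Itga4 did not differ beyond their spread. The place of Itga4 rests on its window: its regions at 123067 and 109320 bp stood at 79.7 ± 2.18 and 76.2 ± 11.3, which would put it above Itgad and Itgal. All of these are descriptions over 2 libraries, with no test.

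Across the 13 regions the replicates ranked the folds alike (Spearman's rho = 0.907, over regions that come from the same 2 libraries, as a description). The fold was higher in replicate 2 in 12 of 13 regions, as in 87.2% of all shared regions. The median ratio of replicate 2 to replicate 1 was 1.48 in the integrin windows and 1.39 over all shared regions. The background level of the control was 2.08 fragments in replicate 1 and 1.22 in replicate 2, and its part in the fold difference between the replicates was not tested. At this level stood 79.3% and 80.9% of all peaks, and 15 of 17 and 20 of 26 integrin window peaks. For such peaks the fold within a replicate follows the summit fragments alone and carries no local input level. The lower of the 2 folds had a median of 6.17 in the integrin windows and 6.50 over all shared regions, and 6 of the 13 regions were above the latter.

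**Figure D4:**
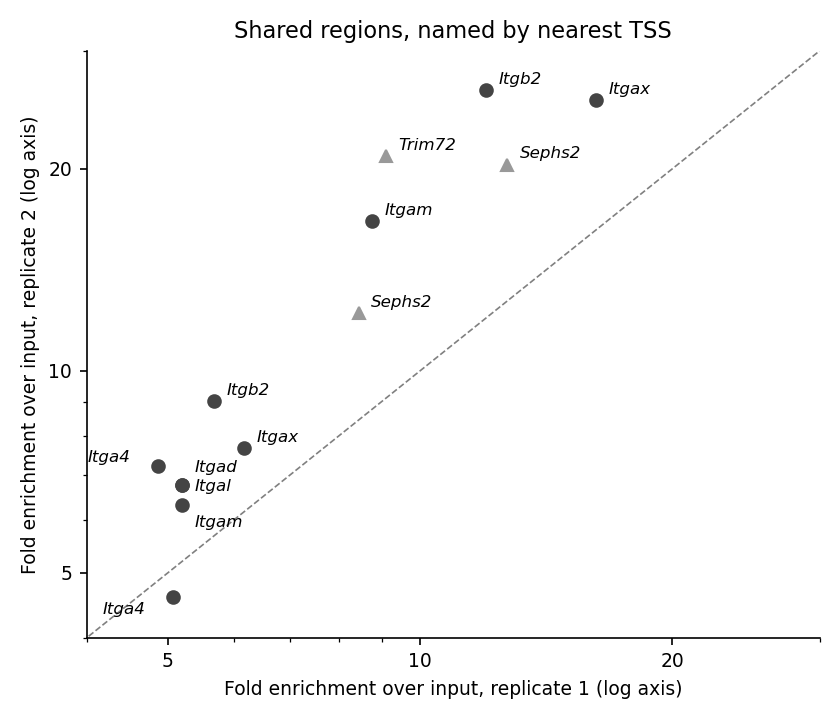
Fold enrichment over input of the 13 shared regions in replicate 1 (horizontal log axis) and replicate 2 (vertical log axis), each named by its nearest TSS; triangles are regions nearest to a gene that is no member, and the dashed line marks equal folds. Of the 13 points, 12 lie above the line; the points of Itgad and Itgal coincide at 5.20 and 6.77.

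In the integrin windows, peaks found in both replicates had higher median folds and widths than the others. In replicate 1, 13 of 17 integrin window peaks had a partner (76.5%, exact 95% binomial interval 50.1% to 93.2%, counting error only), against 69.4% of all its peaks. In replicate 2 it was 13 of 26 (50%, 29.9% to 70.1%), against 59.2%. Both intervals hold the share of all peaks. Partnered peaks in the integrin windows had median folds of 6.17 in replicate 1 and 9.02 in replicate 2, and the others 5.04 and 5.44. Median widths were 326 and 448 bp with a partner and 148 and 172 bp without. The same medians over all peaks are not given, so that this difference is not shown to be particular to the integrin windows. Counted in replicate 2 alone, without replicate 1, the windows held 26 binding sites in place of 13, and in replicate 1 alone 17. With a minimum of 20 fragments at the summit in both libraries, a limit chosen after the data were seen, 6 of the 13 regions remained (46.2%), as did 44.1% of all shared regions.

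Of the 13 regions, 10 were nearest to the TSS of a member. By the position of the mean summit, 7 lay in introns, 3 in promoters (of Itgal, Itga4 and Sephs2), 2 between genes and 1 in an exon, that of the short Itgax transcripts. C/EBP strings occurred in 8 of the 13 windows (61.5%), against 40.9% of all shared regions, and PU.1 strings in 3 (23.1%, those of Itgax, Itgal and Itga4), against 8.0%. C/EBP factors and PU.1 are both known to act at macrophage enhancers. AP-1 strings were in 2 windows (15.4%, against 8.91%), nuclear receptor strings in 2 (15.4%, against 15.4%) and RUNX strings in 1 (7.69%, against 26.4%). The RUNX count depended on the summit used: around the summits of replicate 1 it was 3 of 13 (23.1%, against 25.7%), and with 200 bp each side also 3 (23.1%, against 38.9%). The E-box, RBPJ and SMAD strings were in 1 window each, against 3.65%, 4.14% and 11.2% of all shared regions. Around the mean summits no window held the ELF5-type ETS string CAGGAAGT (5.62%), the ETS-IRF string GGAANNGAA (8.52%), the STAT5 string TTCNNNGAA (8.06%) or the SMAD palindrome GTCTAGAC (0.465%). Other counts also varied with the summit. Around the summits of replicates 1 and 2, PU.1 strings were in 3 and 2 windows and AP-1 strings in 1 and 3. Nuclear receptor and SMAD strings were each in 1 and 2, E-box strings in 0 and 1, and ETS-IRF strings in 1 and 0. C/EBP strings were in 7 with either. Overlaps between the strings were left in. With another C/EBP string, which fixes purines and pyrimidines in place of free bases, 5 windows matched (38.5%), against 23.6%. A match is a string of letters and not a bound site, and with 13 windows each region weighs 7.69 points.

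**Figure D5:**
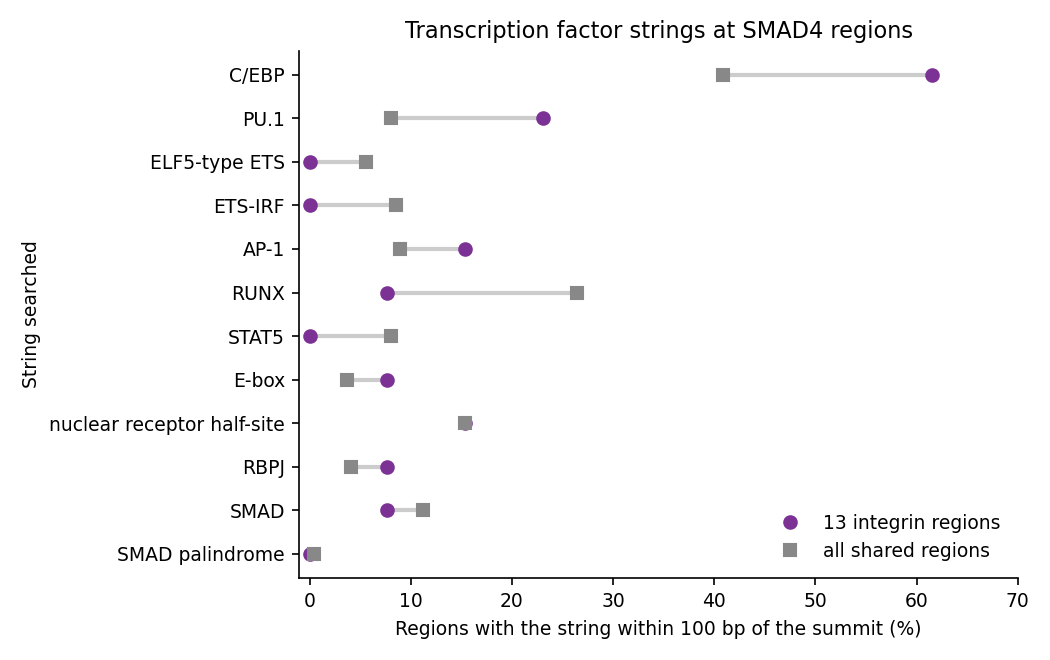
Percent of regions with each string within 100 bp of the mean summit (horizontal axis, in percent) for the 13 integrin window regions (purple circles) and all 10964 shared regions (grey squares). C/EBP stands at 61.5% against 40.9% and PU.1 at 23.1% against 8.0%. RUNX stands at 7.69% against 26.4%, or at 23.1% against 25.7% around the summits of replicate 1, which are not drawn.

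Of 19 integrin subunit genes outside the 8 members, 6 (31.6%) had a shared region in the window and 7 (36.8%) were nearest to 1, beside 39.1% and 21.5% of protein-coding genes. The strongest was Itga1, a collagen receptor subunit, with folds of 33.8 and 38.4 at a region 107604 bp upstream of its TSS. Itgb8, whose product paired with αv releases active TGFβ, had 15.6 and 18.5 at 80365 bp. Itgb1, the common β1 subunit, had 11.0 and 14.9 at 126139 bp upstream. All 3 regions lay outside the 50 kb windows, as did that of Itgb6, at 74972 bp. Those of Itgb5, Itga8 and Itga6 lay inside, at 7140, 15709 and 24131 bp. Of the members, Itgax, Itgam, Itgad, Itgal and Itgb2 had their strongest own regions inside the window. Itga4 had higher folds at 109320 and 123067 bp upstream than inside its window. Of 8 genes of integrin activation, 4 had a shared region in the window and 3 (37.5%) were nearest to 1: Apbb1ip, whose product RIAM links Rap1 to talin, with folds of 21.4 and 32.0, the exchange factor gene Cyth1 with 4.87 and 8.12, and Rap1a with 7.63 and 3.18. Apbb1ip alone had 7 of the 10 regions of that list. The genes of talin (Tln1) and kindlin-3 (Fermt3), which bind the β tails, had none. Of 8 ligand genes, 3 had a shared region in the window and the same number were nearest to 1: Cdh1, the E-cadherin ligand of the αE chain, with 11.4 and 17.1, Vcam1, a ligand of α4, with 9.42 and 10.8, and C3, the source of the iC3b that CD11b and CD11c bind, with 4.55 and 13.1. Icam1, Icam2 and Icam4 had none.

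Each of 8 AM marker genes (Siglecf, Marco, Pparg, Chil3, Car4, Cidec, Krt79 and Fabp1) was nearest to a shared region. Folds reached 45.8 and 65.4 at Chil3. Of 8 marker genes of other lung or blood cells, 5 (62.5%) had a shared region in the window, beside 39.1% of protein-coding genes, and 3 (37.5%: Ncr1, Scgb1a1 and Pecam1) were nearest to 1, beside 21.5%. Pecam1 had folds of 10.7 and 16.7. In both replicates these were above those of Siglecf (4.18 and 10.2), Cidec, Krt79 and Fabp1, and below those of Marco, Pparg, Chil3 and Car4. Binding near a gene is not its expression, so that these counts test neither the cell label nor the purity of the sorted cells.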

How the data were processed

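Peak lists of 2 SMAD4 HT-ChIPmentation libraries of AMs were analysed; the 2 inputs entered only as the control of peak calling. Per the study's methods and the labels, the authors used Cutadapt for trimming, Bowtie2 for alignment to mm10, PICARD and samtools for filtering, and MACS3 for calling peaks sample by sample, with q-values of up to 0.05 kept. Each deposited peak has a fold ratio over the control level, a −log10 p-value and −log10 q-value at the summit, and a score, which was not used.

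Summit fragments and control levels were solved from the deposited fold and p-value, and gave whole fragments (within 0.02) at 100% of peaks. The peaks of the 8 genes had 9 to 57 fragments at the summit, which limits the precision. Windows, nearest TSSs and features used curated RefSeq transcripts of GRCm38 (promoters ran from 1 kb before to 100 bp after a TSS). Strings were searched in 201 bp around mean summits. Values are descriptions; percentages of all genes or regions stand beside them. Intervals are exact binomial (Clopper-Pearson) and cover counting error only. Replicate numbers follow accession order. Steps were tested on simulated data (Python 3.11.15 with scipy 1.17.1). The members, lists and strings were chosen with earlier results of these data known. All 8 members were named, and of each other list the 3 genes with the highest lower fold. Printed windows are, for each member, the strongest region in its window among those nearest to its own TSS. A region is not reported here. Alternatives changed the overlap, q, fold, window, transcript set, nearest-gene rule, string window, ranking measure and library.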

Additional observations from a re-analysis of the deposited data

How the results depend on the processing

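Of 135 values under other settings, 109 stayed within 1.5 times the reported count, within 1 SD or within the exact interval, and 26 moved, 19 of them counts of single strings or of any string. The 6 genes nearest to a shared region were 6 under every planned setting tried and 4 with at least 20 summit fragments in both libraries. That limit, chosen after seeing the data, left 6 of the 13 regions (46.2%, against 44.1% of all shared regions); 3 of these were nearest to a member (Itgax, Itgam and Itgb2), and Itga4 was the other gene, through regions outside its window. Genes with a shared region in the window ranged from 5 to 8. Within 100 kb all 8 had 1, and with predicted transcripts Itgb7 did. The share of all protein-coding genes is given for the main window only (39.1%), so that the counts under other windows have no background beside them. Taking gene bodies only lowered the shared regions to 8 and the peaks to 11 in replicate 1 and 15 in replicate 2. Leaving out 1 replicate gave 17 to 26 integrin window regions. Nearest to a peak were then 3 to 6 integrin activation genes, 3 to 4 ligand genes and 8 to 10 other subunits. No share of all protein-coding genes is given for a single replicate, and the 21.5% above is for shared regions. A minimum fold of 5 left 1 integrin activation gene, Apbb1ip. Any of the 12 strings was in 11 of the 13 main windows (84.6%, against 81.3% of all shared regions). It was in 7 at 50 bp each side and in 13 at 200 bp each side. Around the summits of replicates 1 and 2 it was in 13 and 11. For these other settings no share of all shared regions is given. At 50 bp each side 5 windows held a C/EBP string. The order of the 6 genes was kept when −log10 q or summit fragments replaced fold. Within each replicate their strongest regions had the same control level, so that these measures rank them alike by construction. The kept order is therefore no separate check. No paired analysis was possible because there was 1 immunoprecipitated group, accession order alone set the replicate numbers, and no test was made. Depth limits the weak regions: those of Itgad, Itgal and Itga4 rest on 10 to 16 fragments.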
